A study of Mus musculus and Homo sapiens with 34 samples.

Results

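The genes described here encode 8 proteoglycan core proteins, asporin, decorin, biglycan, lumican, versican, syndecan-1, syndecan-4 and glypican-1. They were listed by name, with earlier results of these data known, and no measured value enters the rule. Symbols were matched without regard to case, and all 8 were found among 55450 mouse genes and among 58870 human genes. PolyA RNA was sequenced from spheroids of the mouse colorectal carcinoma lines MC38 and CT26 and the human colorectal carcinoma line HT29, in 34 libraries. The SIS ECM groups, spheroids grown with decellularised small intestinal submucosa matrix, hold 5 MC38 libraries (replicates 1, 3, 4, 5 and 6), 6 CT26 libraries and 6 HT29 libraries. The cells-alone groups, spheroids of the same line without added matrix, hold 5 MC38 libraries (replicates 1 to 5), 6 CT26 libraries and 6 HT29 libraries. Every culture ran for 7 days in ultra-low attachment U-bottom plates, and each tube of RNA came from 10 pooled spheroids. No stromal or immune cells are named in the labels, and each line is a single cell line, so the values describe these lines and not a tumour. Whether the libraries within a group are separate cultures is not stated, so that every p-value below rests on a spread that could be technical alone.

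A proteoglycan is a core protein that carries long sulfated sugar chains, either heparan sulfate or chondroitin, dermatan or keratan sulfate. Small leucine-rich members (decorin, biglycan, asporin, lumican) are secreted, bind collagen fibrils and growth factors, and in the gut are made mainly by fibroblasts. Versican fills the pericellular matrix together with hyaluronan, whereas syndecans and glypicans sit on the cell surface, where their heparan sulfate holds growth factors and matrix proteins.

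Summed counts ran from 15826190 to 24196115 in mouse libraries and from 25515239 to 37001506 in human libraries. Levels are given as CPM, counts per 1000000 of the library, scaled by TMM factors within each line, as mean ± SD over libraries where a mean is given. Genes were tested with edgeR's quasi-likelihood F test, two-sided, with Benjamini-Hochberg adjustment over all genes tested in that line, and a gene is said to have risen or fallen where the adjusted p was below 0.05. Log2 fold changes are SIS ECM over cells alone and stand with their SE. Libraries numbered 1 to 3 and 4 to 6 stood apart in the mouse lines: with the culture in the model, 5362 genes in MC38 (40.8%) and 6467 in CT26 (52.7%) differed between these number ranges. In HT29 edgeR called 0 of 15207 genes between them, with 2473 at an unadjusted p below 0.05. The labels do not say what the numbers stand for. MC38 has 2 SIS ECM libraries and 3 cells-alone libraries in the lower range and 3 and 2 in the upper range, so values within each range are given beside results whose call or direction differs between them.

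In MC38, 3 of the 7 members that passed the low-count filter fell with SIS ECM: asporin, biglycan and syndecan-4. The background in MC38 was 9.17% of 13146 genes called in either direction, with 5.36% lower and 3.82% higher. In CT26, 1 of 7 rose (decorin) and 1 fell (asporin), against a background of 9.25% of 12269 genes called, 6.15% higher and 3.10% lower. A block for replicate number raised the CT26 calls over all genes to 2281, against 1135 without it, and the count of members called stayed at 2. In HT29, 2 of 3 rose (syndecan-4 and glypican-1), against 13.5% of 15207 genes called, 7.75% higher and 5.79% lower. Groups did not overlap for 3 members in MC38, 1 in CT26 and 2 in HT29, where 9.65%, 6.95% and 6.39% of all genes tested did not overlap. The median log2 fold change over the members tested was -0.28 in MC38, 0.23 in CT26 and 0.14 in HT29, beside 0.01, 0.01 and -0.00 over all genes tested.

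**Figure D1:**
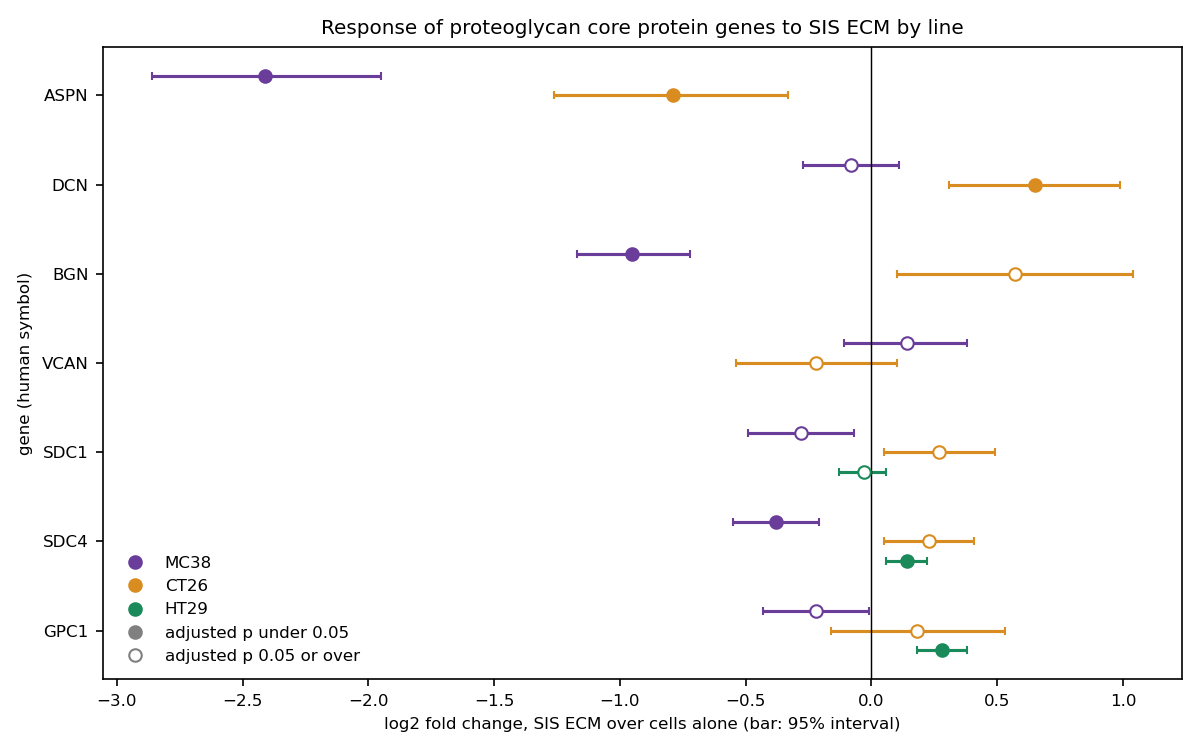
Log2 fold change of each member gene, SIS ECM over cells alone, on the x axis, with 1 row of up to 3 lines per gene; bars are 95% intervals and filled points have an adjusted p below 0.05. MC38 points lie left of CT26 points for 6 of the 7 genes shown, with versican as the exception, and asporin in MC38 lies farthest from 0 at -2.41.

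Asporin (Aspn), a small leucine-rich protein that binds collagen and TGF-beta and lacks the usual attachment site for a sugar chain, had the largest difference of the members in MC38. The MC38 libraries with SIS ECM had 1.12, 1.42, 2.25, 1.15 and 1.58 CPM, against 5.92, 7.15, 7.51, 10.9 and 8.81 CPM in cells alone. Every SIS ECM library lay below every cells-alone library. The fall was -2.41 ± 0.21 on the log2 scale (adjusted p = 5.0e-05), so that cells alone held 5.31 times the level. It was -2.44 in libraries 1 to 3 alone and -2.54 in libraries 4 to 6 alone. These are bulk libraries, in which fewer cells of a type and less RNA per cell cannot be told apart.

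Asporin fell in CT26 too. CT26 spheroids with SIS ECM ran from 0.570 CPM over a median of 1.47 to 1.84 CPM, against 2.29, 2.42 and 2.67 CPM in cells alone. The groups did not overlap, and the SIS ECM libraries were the more spread, with replicate 2 the lowest. On the log2 scale it fell by 0.79 ± 0.22 (adjusted p = 0.0351), on 13 to 32 counts per library with SIS ECM and 40 to 52 in cells alone. This call was lost in 8 of 12 single omissions, those of cells-alone replicates 1 to 6 and SIS ECM replicates 1 and 6, where the change stayed between -0.81 and -0.77 and the adjusted p lay between 0.0555 and 0.074. In libraries 1 to 3 alone the change was -1.11 (adjusted p = 0.0402), and in libraries 4 to 6 alone -0.52 (adjusted p = 0.128).

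Biglycan (Bgn), a collagen-binding proteoglycan that can act on Toll-like receptors when released from the matrix, fell in MC38 and did not pass the test in CT26. MC38 libraries with SIS ECM had 54.3, 46.1, 40.6, 36.8 and 39.1 CPM, against 98.2, 80.9, 82.4, 76.3 and 81.2 CPM in cells alone. The groups were far apart, with cells-alone replicate 1 the highest of all. Its log2 fold change was -0.95 ± 0.10 (adjusted p = 1.7e-04), and it was -0.80 in libraries 1 to 3 alone and -1.02 in libraries 4 to 6 alone. In CT26 biglycan was low, at 1.02, 1.44 and 2.15 CPM (lowest, median, highest) with SIS ECM, against 0.813, 0.916 and 1.46 CPM in cells alone. The groups overlapped, and the log2 fold change was 0.57 ± 0.22, with a 95% interval of 0.10 to 1.04 (adjusted p = 0.127). It passed once the number range was in the model, at 0.55 (adjusted p = 0.0416).

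Decorin (Dcn), the best known of the small leucine-rich family, winds onto collagen fibrils and binds TGF-beta and growth factor receptors. It rose in CT26, to 2.54, 3.97 and 4.54 CPM (lowest, median, highest) with SIS ECM, against 1.93, 2.50 and 2.90 CPM in cells alone. Only SIS ECM replicate 2 lay within the cells-alone range, and the log2 fold change was 0.65 ± 0.16 (adjusted p = 0.0191). Within number ranges it was 0.48 in libraries 1 to 3 (adjusted p = 0.188) and 0.81 in libraries 4 to 6 (adjusted p = 0.00319).

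In MC38 decorin was among the most abundant members, and its groups overlapped. SIS ECM libraries had 1213, 1209.5, 1033, 942 and 1002 CPM, against 1077, 1099.6, 1108, 1255 and 1179 CPM in cells alone. SIS ECM replicates 1 and 3 lay above cells-alone replicates 1 to 3, whereas SIS ECM replicates 4 to 6 lay below every cells-alone library. Over all libraries the log2 fold change was -0.08 ± 0.09, with a 95% interval of -0.27 to 0.11 (adjusted p = 0.587). Within ranges it had opposite signs, 0.14 in libraries 1 to 3 (adjusted p = 0.0276) and -0.30 in libraries 4 to 6 (adjusted p = 0.00398). The difference between ranges, a test added after these values were seen, was -0.44 ± 0.08 (adjusted p = 6.0e-04).

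Lumican (Lum), which carries keratan sulfate and spaces collagen fibrils, was too low to test in either mouse line. MC38 held 3 to 13 counts per library with SIS ECM and 4 to 12 in cells alone, or 0.358 ± 0.155 and 0.373 ± 0.158 CPM (SD, n = 5 each). In CT26 no count was found with SIS ECM, which allows up to 0.0273 CPM over the group at 3 counts, and 1 count in cells alone. Counting intervals and floors cover counting error only. Lumican (chr10:97565128-97572703, mm10, plus strand) lies beside decorin (chr10:97479609-97518143, plus strand), while MC38 held 116161 decorin counts and 39 lumican counts over its SIS ECM libraries and 126731 and 41 over its cells-alone libraries.

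Versican (Vcan), the large chondroitin sulfate proteoglycan that binds hyaluronan, passed the test in neither mouse line over all libraries. MC38 spheroids with SIS ECM had 2218, 2139.9, 1604, 1609 and 1664 CPM, against 1662, 1809, 1863, 1569 and 1501 CPM in cells alone. SIS ECM replicates 1 and 3 were above all cells-alone libraries and the other three lay among them. Across all libraries this gave a log2 fold change of 0.14 ± 0.11, with a 95% interval of -0.11 to 0.38 (adjusted p = 0.478). Within ranges it was 0.28 in libraries 1 to 3 (adjusted p = 2.8e-04) and 0.08 in libraries 4 to 6 (adjusted p = 0.42), and it passed once the range was in the model, at 0.19 (adjusted p = 0.0239). The difference between ranges was -0.21 ± 0.08 and did not pass (adjusted p = 0.0775). In CT26 versican had 2.87, 3.65 and 4.27 CPM (lowest, median, highest) with SIS ECM, against 3.24, 4.04 and 5.24 CPM in cells alone, with overlapping groups and a log2 fold change of -0.22 ± 0.15 (adjusted p = 0.404).

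Syndecan-4 (Sdc4), a transmembrane heparan sulfate proteoglycan of focal adhesions, fell in MC38. SIS ECM libraries of MC38 had 184, 170.5, 186, 179 and 175 CPM, against 251, 251, 254, 199 and 209 CPM in cells alone. The groups did not overlap, and cells-alone replicates 4 and 5 were nearer to the SIS ECM level than replicates 1 to 3. The log2 fold change was -0.38 ± 0.08 (adjusted p = 0.0106). It was -0.52 in libraries 1 to 3 (adjusted p = 2.1e-08) and -0.18 in libraries 4 to 6 (adjusted p = 0.0245), and the difference between ranges was 0.33 ± 0.07 (adjusted p = 0.00265).

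In CT26 syndecan-4 ran the other way without passing the test. CT26 libraries with SIS ECM had 80.6, 91.4 and 109 CPM (lowest, median, highest), against 73.2, 79.5 and 86.5 CPM in cells alone. SIS ECM replicates 1 to 3 lay above every cells-alone library, and replicates 4 to 6 lay among them. The log2 fold change was 0.23 ± 0.08, with a 95% interval of 0.05 to 0.41 (adjusted p = 0.111). It passed with the range modelled, at 0.22 (adjusted p = 0.021), and in libraries 1 to 3 alone, at 0.39 (adjusted p = 0.018), with 0.04 in libraries 4 to 6 (adjusted p = 0.58). The difference between ranges was -0.35 ± 0.10 and did not pass (adjusted p = 0.11).

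Syndecan-1 (Sdc1), the main syndecan of epithelia, passed the test in neither mouse line over all libraries. MC38 libraries with SIS ECM had 51.7, 49.9, 41.0, 37.7 and 37.4 CPM, against 51.4, 52.5, 55.1, 47.5 and 57.2 CPM in cells alone. SIS ECM replicates 4 to 6 were below every cells-alone library and replicates 1 and 3 were not. The log2 fold change was -0.28 ± 0.10 (adjusted p = 0.0940). It passed without SIS ECM replicate 1, at -0.35 (adjusted p = 0.0385), with the range modelled, at -0.25 (adjusted p = 0.0235), and in libraries 4 to 6 alone, at -0.44 (adjusted p = 0.0015), against -0.07 in libraries 1 to 3 (adjusted p = 0.356). The difference between ranges was -0.37 ± 0.10 (adjusted p = 0.0114). CT26 had 9.77, 11.8 and 12.6 CPM (lowest, median, highest) with SIS ECM, against 7.93, 9.38 and 11.7 CPM in cells alone, with overlapping groups and a log2 fold change of 0.27 ± 0.10 (adjusted p = 0.123). With the range modelled the CT26 value was 0.27 and just passed (adjusted p = 0.049), and within ranges it was 0.18 in libraries 1 to 3 (adjusted p = 0.469) and 0.36 in libraries 4 to 6 (adjusted p = 0.0231).

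Glypican-1 (Gpc1), a heparan sulfate proteoglycan held to the membrane by a lipid anchor, likewise passed in neither mouse line. In MC38 it had 83.8, 80.6, 80.8, 79.9 and 77.3 CPM with SIS ECM, against 109, 109, 91.6, 72.5 and 85.6 CPM in cells alone. The cells-alone libraries were widely spread, with replicate 4 below every SIS ECM library. The log2 fold change was -0.22 ± 0.10 (adjusted p = 0.184). Without cells-alone replicate 4 it was -0.30 and passed (adjusted p = 0.0226). Within ranges it was -0.34 in libraries 1 to 3 (adjusted p = 3.2e-04) and -0.00 in libraries 4 to 6 (adjusted p = 0.988), a difference of 0.33 ± 0.10 (adjusted p = 0.0220). In CT26 it had 32.5, 40.4 and 66.3 CPM (lowest, median, highest) with SIS ECM, against 35.2, 38.2 and 48.9 CPM in cells alone, with a log2 fold change of 0.18 ± 0.16 (adjusted p = 0.524) and SIS ECM replicates 1 and 2 above all other libraries. It was 0.34 in libraries 1 to 3 (adjusted p = 0.199) and -0.03 in libraries 4 to 6 (adjusted p = 0.848).

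The difference of the SIS ECM effect between number ranges was called for 4 of 7 members in MC38 (decorin, syndecan-1, syndecan-4 and glypican-1), against 21.9% of all genes tested, 10.4% higher in libraries 4 to 6 and 11.5% lower. In CT26 edgeR called it for 0 of 7 members, with 1 at an unadjusted p below 0.05, against 0.383% of all genes called. For asporin and biglycan in MC38 the difference of the SIS ECM effect did not pass, at -0.11 ± 0.33 (adjusted p = 0.846) and -0.22 ± 0.11 (adjusted p = 0.153). This does not show that the effects were equal.

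**Figure D2:**
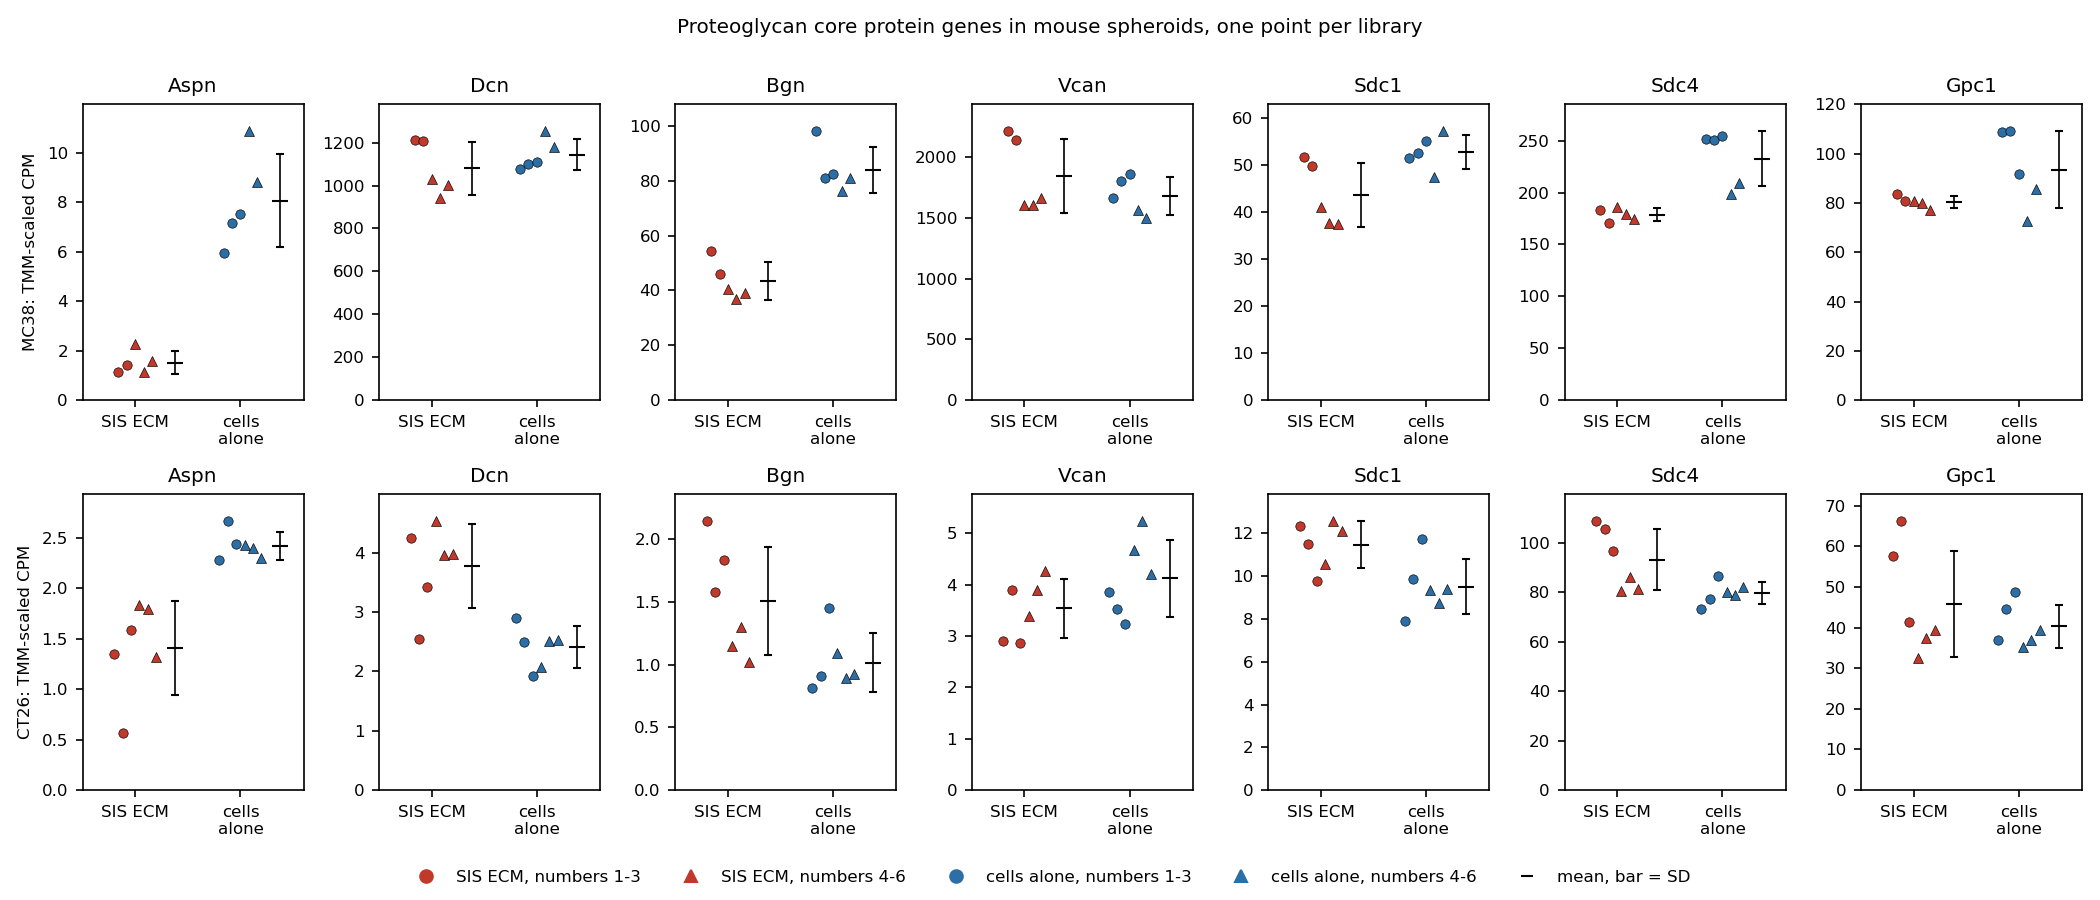
TMM-scaled CPM (y axis, from 0) of 7 member genes in each mouse library, MC38 in the upper row and CT26 in the lower, SIS ECM left of cells alone; circles are replicates 1 to 3, triangles replicates 4 to 6, and bars show mean and SD. The MC38 groups separate for Aspn, Bgn and Sdc4, and in MC38 the Dcn, Bgn, Vcan and Sdc1 circles of SIS ECM lie above its triangles.

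In HT29, a line of epithelial character, only the cell-surface members and a trace of biglycan were measured. Glypican-1 rose: SIS ECM libraries had 44.1, 49.8 and 51.9 CPM (lowest, median, highest), against 36.2, 41.3 and 43.0 CPM in cells alone. Every SIS ECM library lay above every cells-alone library, with SIS ECM replicate 4 the nearest. The log2 fold change was 0.28 ± 0.05 (adjusted p = 9.1e-04), or 1.21-fold. Syndecan-4 also rose, to 185, 194 and 199.6 CPM with SIS ECM, against 164, 177 and 179 CPM in cells alone. These groups did not overlap either, and the log2 fold change was small, at 0.14 ± 0.04 (adjusted p = 0.0190). Without the filter on low counts it was 0.13 and no longer passed (adjusted p = 0.0734). Syndecan-4 passed in neither range alone, at 0.12 in libraries 1 to 3 and 0.15 in libraries 4 to 6 (adjusted p = 0.229 and 0.277). For glypican-1 these values were 0.29 (adjusted p = 0.0165) and 0.26 (adjusted p = 0.086).

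Syndecan-1 in HT29 had 279.8, 298 and 312 CPM with SIS ECM, against 279, 308 and 324 CPM in cells alone. The groups overlapped nearly throughout, and the log2 fold change was -0.03 ± 0.04 with a 95% interval of -0.13 to 0.06 (adjusted p = 0.682). The remaining 5 members were not tested. Over the 6 libraries of each group, SIS ECM against cells alone, asporin had 1 and 1 counts, decorin 1 and 0, versican 1 and 3, lumican 2 and 7, and biglycan 29 and 36. For decorin in cells alone, 0 counts allow up to 0.0157 CPM over the group at 3 counts.

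**Figure D3:**
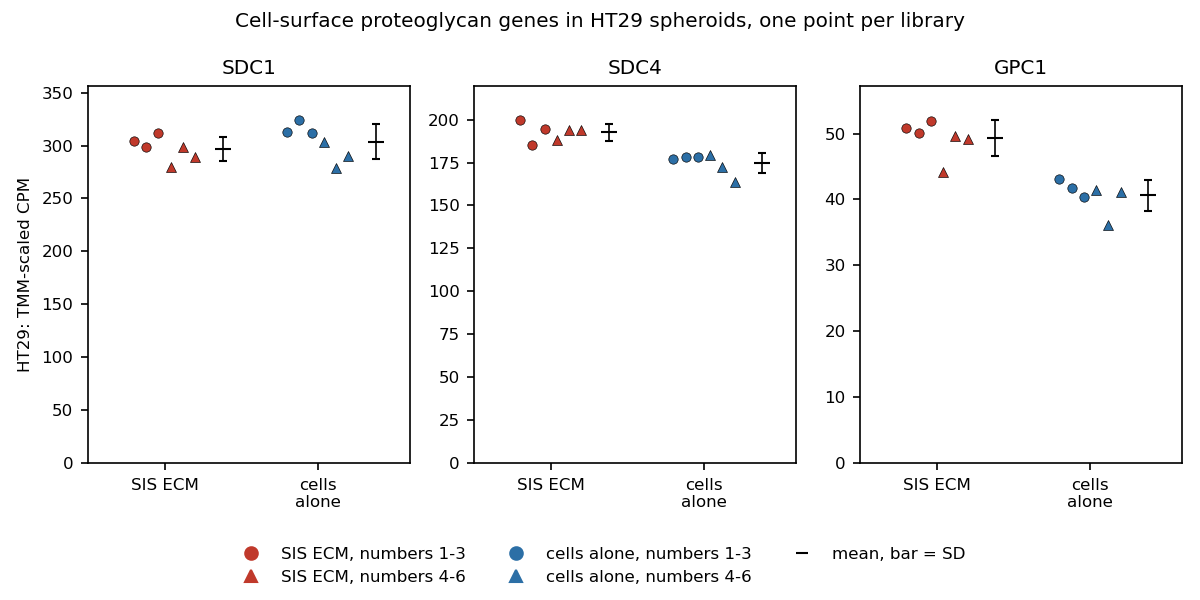
TMM-scaled CPM (y axis, from 0) of SDC1, SDC4 and GPC1 in each HT29 library, SIS ECM left of cells alone; circles are replicates 1 to 3, triangles replicates 4 to 6, and bars show mean and SD. GPC1 and SDC4 are higher in every SIS ECM library, and SDC1 groups overlap.

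The response to SIS ECM was lower in MC38 than in CT26 for 5 of 7 members when the difference itself was tested over all mouse libraries, against 8.27% of 14080 genes called, 5.40% lower and 2.87% higher. The MC38 response minus the CT26 response was -1.62 ± 0.31 for asporin (adjusted p = 0.00213) and -1.53 ± 0.24 for biglycan (adjusted p = 3.0e-04). It was -0.74 ± 0.17 for decorin (adjusted p = 0.00896), -0.62 ± 0.12 for syndecan-4 (adjusted p = 0.00274) and -0.55 ± 0.15 for syndecan-1 (adjusted p = 0.0238). Asporin fell in both lines and by more in MC38, whereas decorin, biglycan, syndecan-4 and syndecan-1 had values of opposite sign in the lines. Within single lines over all libraries, decorin passed only in CT26, biglycan and syndecan-4 only in MC38, and syndecan-1 in neither. Decorin in MC38 was -0.08 over all libraries and 0.14 in libraries 1 to 3. Biglycan in CT26 held 17 to 46 counts per library with SIS ECM and 15 to 31 in cells alone. Glypican-1, at -0.41 ± 0.21 (adjusted p = 0.232), and versican, at 0.35 ± 0.19 (adjusted p = 0.269), did not pass, and versican passed once the number range was modelled, at 0.39 (adjusted p = 0.015). HT29 stands in another table and was not tested against the mouse lines.

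For decorin, versican and biglycan, MC38 and CT26 spheroids differed far more from each other than either did between cultures. On a scale shared by all mouse libraries, decorin had 1074 ± 59.0 CPM in MC38 cells alone and 2.55 ± 0.359 CPM in CT26 cells alone (SD, n = 5 and 6), a 420-fold difference by the fit. Versican had 1580 ± 151 CPM in MC38 and 4.38 ± 0.797 CPM in CT26, 361-fold apart. Biglycan, at 78.8 ± 8.44 CPM in MC38 and 1.08 ± 0.257 CPM in CT26, was 72.1-fold higher in MC38. The cell-surface members were closer, at log2 differences of 2.29 ± 0.11 for syndecan-1, 1.37 ± 0.09 for syndecan-4 and 1.04 ± 0.15 for glypican-1, with 1.55 ± 0.20 for asporin, less than the -2.41 between cultures of MC38. All 7 members tested were higher in MC38, where 78.1% of all genes were called, 41.3% higher and 36.8% lower.

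Per kilobase of exon, the members of MC38 ran in the order decorin, versican, syndecan-4, glypican-1, syndecan-1, biglycan, asporin and lumican. With SIS ECM the levels were 172, 119, 65.1, 14.5, 10.6, 6.61, 0.593 and 0.136 CPM per kb, against 184, 109, 85.9, 17.1, 13.0, 12.9, 3.21 and 0.143 CPM per kb in cells alone. No neighbours in this order overlapped between libraries with SIS ECM. In cells alone glypican-1 (13.0 to 20.0 CPM per kb), syndecan-1 (11.5 to 14.1) and biglycan (11.6 to 15.3) overlapped.

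CT26 led with the heparan sulfate proteoglycans of the cell surface. Syndecan-4 had 38.6 CPM per kb with SIS ECM and 33.2 in cells alone, glypican-1 9.37 and 8.31, and syndecan-1 3.18 and 2.65. The secreted members lay lower, with asporin at 0.634 and 1.09 CPM per kb, decorin at 0.683 and 0.437, versican at 0.258 and 0.303, and biglycan at 0.261 and 0.177. Asporin and decorin overlapped between libraries with SIS ECM, whereas in cells alone every asporin value (1.02 to 1.20 CPM per kb) lay above every decorin value (0.353 to 0.522 CPM per kb). Lengths are those of all annotated exons joined, so a line that uses a short isoform would be read too low.

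**Figure D4:**
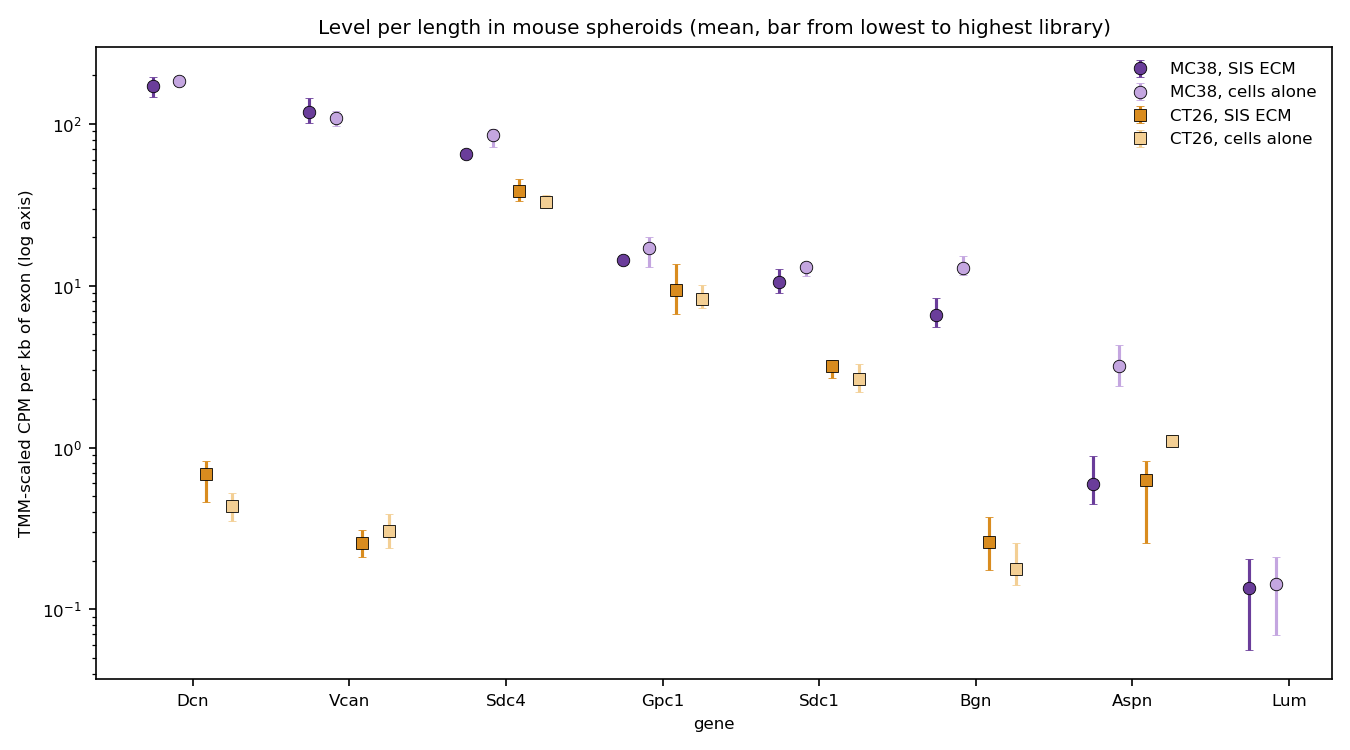
Mean TMM-scaled CPM per kb of exon (log y axis) of each member in the mouse spheroids, SIS ECM left of cells alone and MC38 left of CT26; bars run from the lowest to the highest library, and Lum in CT26 is left out because most libraries held no count. Dcn and Vcan differ most between the lines, at 172 and 119 CPM per kb in MC38 with SIS ECM against 0.683 and 0.258 in CT26 with SIS ECM.

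The promoters shown are those of the 3 members that fell with SIS ECM in MC38. Whether these genes are regulated together was not tested. Each is the 300 bases from 250 before to 50 after the RefSeq start (GRCm38.p6), 5′ to 3′ on the strand of the gene, with motif matches in capitals. The windows are chr13:49544193-49544492 on the plus strand for Aspn, chrX:73483351-73483650 on the plus strand for Bgn and chr2:164443139-164443438 on the minus strand for Sdc4. Such a window was at hand for 5 of the 8 members.
Aspn: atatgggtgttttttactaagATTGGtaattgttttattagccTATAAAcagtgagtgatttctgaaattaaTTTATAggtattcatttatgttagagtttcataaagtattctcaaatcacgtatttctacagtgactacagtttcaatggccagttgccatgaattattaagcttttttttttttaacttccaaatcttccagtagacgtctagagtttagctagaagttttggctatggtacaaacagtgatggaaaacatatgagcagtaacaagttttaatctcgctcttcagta
Bgn: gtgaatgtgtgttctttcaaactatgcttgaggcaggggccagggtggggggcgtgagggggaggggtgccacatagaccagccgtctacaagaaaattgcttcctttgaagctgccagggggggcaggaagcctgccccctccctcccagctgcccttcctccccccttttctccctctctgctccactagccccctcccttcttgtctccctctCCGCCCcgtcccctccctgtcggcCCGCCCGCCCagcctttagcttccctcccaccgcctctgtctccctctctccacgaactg
Sdc4: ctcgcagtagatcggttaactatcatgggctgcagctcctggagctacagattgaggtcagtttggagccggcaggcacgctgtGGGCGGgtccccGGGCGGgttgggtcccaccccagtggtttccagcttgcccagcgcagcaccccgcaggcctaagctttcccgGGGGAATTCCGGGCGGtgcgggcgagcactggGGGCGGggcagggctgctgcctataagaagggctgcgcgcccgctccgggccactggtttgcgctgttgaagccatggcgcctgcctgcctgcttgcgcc
Capitals mark matches to the motifs searched, on both strands. Of 32851 promoters of this length, 13.6% held a TATA box, TATAAA. A GC box, GGGCGG, was present in 35.7% of them. The CCAAT box was in 37.4%, and an NF-kB motif in 8.46%. The AP-1 motif TGANTCA, in 7.81% of promoters, had no match in these windows. Nor had the TEAD motif GGAATG, in 14.7%. Aspn is AT-rich, with 31% G and C, and held 2 TATA boxes, starting at -207 and -178 from the start site, and 1 CCAAT box at -229. Bgn had 63.7% G and C and 3 GC boxes, of which those at -10 and -6 overlap. Sdc4 had 67.7% G and C and 4 GC boxes, and an NF-kB motif at -82 that directly precedes the GC box at -72. No motif was shared by all 3 windows. A match describes letters only, and the Sdc4 window starts inside the longer gene that GENCODE annotates.

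Genes that make and cut proteoglycans were counted from 7 lists. To set beside each list, 3.82% of all genes tested rose and 5.36% fell in MC38. These shares were 6.15% and 3.10% in CT26, and 7.75% and 5.79% in HT29. Among 33 other core proteins, 15 were tested in MC38, and 3 fell, with a median log2 fold change of -0.24. These were collagen XVIII (Col18a1, -0.64 ± 0.06, adjusted p = 9.5e-05) and perlecan (Hspg2, -0.54 ± 0.08, adjusted p = 0.00257), both heparan sulfate proteoglycans of basement membranes, and the chondroitin sulfate proteoglycan NG2 (Cspg4, -0.57 ± 0.13, adjusted p = 0.0162). In CT26, 1 of 12 rose (median 0.11): osteomodulin (Omd, a small leucine-rich gene near asporin), at 0.42 ± 0.12 (adjusted p = 0.0371), a call lost in 9 of 12 single omissions and without the filter on low counts. Omd was 0.10 in libraries 1 to 3 (adjusted p = 0.479) and 0.75 in libraries 4 to 6 (adjusted p = 6.5e-06). In HT29, 3 of 13 rose and 1 fell (median 0.16). Betaglycan, the TGF-beta co-receptor TGFBR3, had 22.6 ± 2.60 CPM with SIS ECM and 13.6 ± 0.644 CPM in cells alone (SD, n = 6 each), 0.74 ± 0.07 on the log2 scale (adjusted p = 1.8e-06). Agrin (AGRN, 0.28) and COL18A1 (0.24) rose, and their calls were lost in 5 and 8 of 12 single omissions. CSPG4 fell by 0.55 in HT29 (adjusted p = 0.00539). COL18A1 and Col18a1 thus had opposite signs in HT29 and MC38, a difference not tested.

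The counts of chain assembly genes stand against 9.17% of all genes called in MC38, 9.25% in CT26 and 13.5% in HT29. Of the enzymes that build the linker between core protein and chain, 1 of 7 fell in MC38 (xylosyltransferase Xylt2, -0.44 ± 0.09), 1 of 6 rose in CT26 (the xylose phosphatase Pxylp1, 0.83 ± 0.21). Xylt2 did not pass in libraries 4 to 6 alone, at -0.30 (adjusted p = 0.064). The Pxylp1 call was lost in 4 of 12 single omissions, those of cells-alone replicates 1 and 6 and SIS ECM replicates 1 and 2 (adjusted p up to 0.055). In HT29 edgeR called 0 of 7, with 1 at an unadjusted p below 0.05, and DESeq2 called 0. In the heparan sulfate list, 1 rose and 1 fell of 14 in MC38 (Ndst3 at 0.56, Ext2 at -0.35), and each call was lost in 7 of 10 single omissions. In CT26, 1 rose and 1 fell of 13 (Ndst3 at 0.38 ± 0.08, Extl2 at -0.27 ± 0.07). The Extl2 call was lost in 6 of 12 single omissions (adjusted p up to 0.0652) and in libraries 1 to 3 alone, at -0.26 (adjusted p = 0.0684). Ndst3 is a heparan sulfate N-deacetylase and sulfotransferase, and it rose in both mouse lines. In HT29, 3 rose and 2 fell of 12: the sulfotransferases HS2ST1 (0.25 ± 0.04) and HS6ST1 (0.35 ± 0.06) and the chain initiator EXTL3 (0.25 ± 0.05) rose, and the extracellular sulfatase SULF2 fell (-0.30 ± 0.05, adjusted p = 5.4e-04). The other that fell was GLCE, the chain epimerase, named after its value was seen, at -0.17 (adjusted p = 0.0309, lost in 3 of 12 single omissions). Medians of this list were -0.09 in MC38, -0.00 in CT26 and 0.05 in HT29.

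Of the chondroitin and dermatan sulfate synthesis genes, 1 of 15 rose in MC38 (median -0.04), 3 of 11 rose and 1 fell in CT26 (median 0.26), and 1 of 13 rose in HT29 (median 0.16). No test compared these counts, and over the alternatives tried 0 to 3 rose and 0 to 3 fell in MC38, where 3 to 4 rose and 1 fell in CT26. The sulfotransferase Chst11 had 16.9 ± 1.23 CPM with SIS ECM and 10.6 ± 1.14 CPM in CT26 cells alone (SD, n = 6 each; adjusted p = 2.2e-04). The chain initiator Csgalnact1, at 1.70 ± 0.29, and the sulfotransferase Chst15, at 1.03 ± 0.23 on the log2 scale, rose as well. Csgalnact1 was low, at means of 1.23 CPM with SIS ECM and 0.369 CPM in CT26 cells alone. Dermatan sulfate epimerase (Dse) fell, by 0.38. The related Dsel was higher in MC38, at 0.26 ± 0.06 (adjusted p = 0.0220), and CHST14, which sulfates dermatan sulfate, in HT29, at 0.25 ± 0.07 (adjusted p = 0.0283). Dsel lost its call without cells-alone replicate 2 or 3 (adjusted p = 0.0648 and 0.0613) and with the replicate block (adjusted p = 0.0658), and was 0.39 in libraries 1 to 3 (adjusted p = 2.4e-05) and 0.13 in libraries 4 to 6 (adjusted p = 0.181). CHST14 lost its call without SIS ECM replicate 2 or 5 (adjusted p = 0.0583 and 0.078).

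Sulfate and sugar nucleotide supply held 1 call, PAPSS2, which makes the sulfate donor and fell in HT29 (-0.31 ± 0.04, adjusted p = 9.7e-05). In MC38 edgeR called 0 of 9, with 3 at an unadjusted p below 0.05 and 2 called by DESeq2. In CT26 it called 0 of 8, with 0 at an unadjusted p below 0.05 and 0 by DESeq2. Of the hyaluronan genes, 1 of 8 fell in MC38 (Tnfaip6 at -0.67, lost in 7 of 10 single omissions) and 1 of 5 rose in CT26 (the hyaluronidase Hyal1 at 1.06 ± 0.15). In HT29, 1 of 8 rose (the synthase HAS2 at 0.73 ± 0.13) and 1 fell (CEMIP at -0.26, lost in 8 of 12). HAS2 passed in neither range alone, at 0.69 in libraries 1 to 3 and 0.75 in libraries 4 to 6 (adjusted p = 0.0553 and 0.056). List medians in MC38, CT26 and HT29 were -0.01, -0.00 and -0.05 for supply and -0.07, 0.03 and 0.04 for hyaluronan.

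Some of the proteases that cut core proteins rose in each of the 3 lines. In MC38, 4 of 13 rose and 1 fell (median 0.05). In CT26, 4 of 8 rose and 1 fell (median 0.26), and in HT29 3 of 6 rose (median 0.13). Over all genes tested, 3.82%, 6.15% and 7.75% rose in MC38, CT26 and HT29, and no test compared the counts with these shares. The collagenase Mmp13 had 121 ± 20.6 CPM with SIS ECM and 7.60 ± 2.74 CPM in CT26 cells alone (SD, n = 6 each; adjusted p = 7.0e-08). In MC38 it was lower and also rose, to 4.42 ± 0.590 CPM with SIS ECM, against 1.62 ± 0.304 CPM in cells alone (SD, n = 5 each; adjusted p = 1.7e-04). The stromelysin Mmp3 rose by log2 0.50 ± 0.08 in MC38, at means of 83.1 CPM with SIS ECM and 58.7 CPM in cells alone. In CT26 Mmp3 rose by 2.22 ± 0.33 at a far lower level, 1.16 CPM with SIS ECM and 0.239 CPM in cells alone. Mmp14, a membrane protease that sheds syndecans, rose by 0.39 ± 0.10 in MC38, 0.48 ± 0.10 in CT26 and 0.24 ± 0.07 in HT29 (adjusted p = 0.0232, 0.00623 and 0.0329). Its MC38 call was lost without cells-alone replicate 3 or 5 (adjusted p = 0.0502 and 0.0532) and its HT29 call in 6 of 12 single omissions. The fourth protease to rise in each mouse line, named after its values were seen, was the aggrecanase Adamts4, at 0.34 ± 0.09 in MC38 (adjusted p = 0.0435) and 1.13 ± 0.32 in CT26 (adjusted p = 0.0411), calls lost in 9 of 10 and 10 of 12 single omissions. Within ranges Adamts4 was 0.22 in libraries 1 to 3 (adjusted p = 0.0921) and 0.49 in libraries 4 to 6 (adjusted p = 0.00822) of MC38, and 1.57 (adjusted p = 0.0115) and 0.47 (adjusted p = 0.494) in CT26. Mmp2 and Mmp9 did not pass in MC38, at 0.06 and 0.18 (adjusted p = 0.837 and 0.332). MMP13 did not pass in HT29, at 0.10 ± 0.13 (adjusted p = 0.679). Matrilysin (MMP7), which also sheds syndecan-1, rose in HT29 by 0.57 ± 0.06 (adjusted p = 2.7e-06). ADAM17, another sheddase, had 0.12 ± 0.04 in HT29 (adjusted p = 0.0430, lost in 10 of 12 single omissions) and -0.33 ± 0.07 in CT26 (adjusted p = 0.00655). Adamts5, an aggrecanase that cuts versican, fell in MC38 by 0.36 (adjusted p = 0.0179), a call lost without cells-alone replicate 2 (adjusted p = 0.0552) and with the replicate block (adjusted p = 0.0852).

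**Figure D5:**
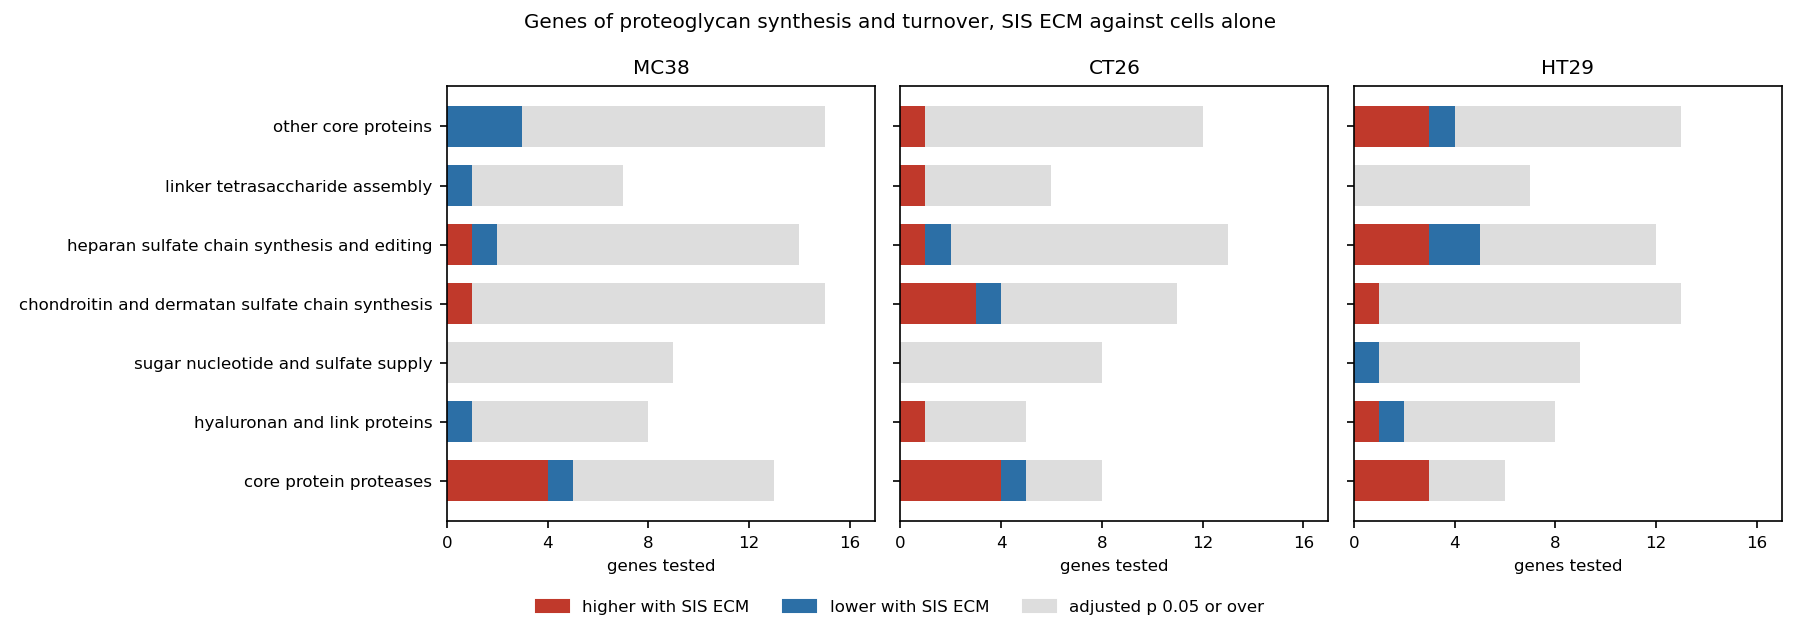
Number of genes tested (x axis) in each of 7 lists of proteoglycan genes, split into genes higher with SIS ECM, lower with SIS ECM and not called at an adjusted p of 0.05, in MC38, CT26 and HT29. Proteases have 4 of 13, 4 of 8 and 3 of 6 genes higher, against 3.82%, 6.15% and 7.75% of all genes tested. These counts are the most of the 7 lists in MC38 and CT26 and level with 2 other lists in HT29. The other core proteins are 3 of 15 lower in MC38, against 5.36% of all genes tested.

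The genes whose log2 CPM followed the called members most closely were named by Pearson's r over the 10 MC38, 12 CT26 or 12 HT29 libraries, which share the culture difference and depth. In MC38 they were Tnc (0.988), Fap (0.974) and Col12a1 (0.973) for biglycan. Tnc at -1.05, Fap at -0.73 and Col12a1 at -1.20 all fell with SIS ECM. Their choice by correlation with biglycan over these libraries favours its direction, so these falls are not separate support. For MC38 asporin they were Steap1 (0.981), Fdps (0.976) and Cog4 (0.975), and for MC38 syndecan-4 Plod1 (0.987), Abcc1 (0.983) and Ndrg1 (0.983). In CT26 they were Pcdhb16 (0.933), Galk2 (0.917) and Casp12 (0.914) for decorin and Smim13 (0.961), Setdb2 (0.954) and Gstcd (0.952) for asporin. In HT29 they were CDC42BPG (0.984), STIM1 (0.978) and EFNB2 (0.977) for glypican-1 and F8A1 (0.975), PRSS23 (0.969) and TGFA (0.958) for syndecan-4.

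Markers of cell types were read beside these results. MC38 lacked epithelial markers, with 8 of 8 below 1 CPM and Epcam, Krt19, Krt20 and Cdx2 at 0 in all 10 libraries, and CT26 had 6 of 8 below 1 CPM with Epcam and Cdh1 at 0 in all 12. In HT29 all 8 were tested, summing to 8461 to 10306 CPM with SIS ECM and 9208 to 10549 CPM in cells alone. Of these, 2 fell, KRT20 at -0.28 (adjusted p = 0.00124) and VIL1 at -0.23 (adjusted p = 0.00289), beside the higher glypican-1 and syndecan-4. Smooth muscle markers in HT29 summed to 9.78 to 12.9 CPM with SIS ECM and 13.2 to 15.4 CPM in cells alone, with TAGLN at -0.36 (adjusted p = 0.00957) and ACTA2 at 0.49 (adjusted p = 0.0324, lost in 7 of 12 single omissions). Leukocyte markers there summed to 18.6 to 21.4 CPM with SIS ECM and 20.1 to 24.5 CPM in cells alone, with CD68 at -0.18 (adjusted p = 0.045, lost in 9 of 12). In CT26 the epithelial marker Krt18 rose, at 1.11 (adjusted p = 0.00252). The 8 summed to 62.3 to 74.1 CPM with SIS ECM and 42.6 to 57.3 CPM in cells alone. Most of this was Krt20, which did not pass, at means of 50.9 and 43.6 CPM (adjusted p = 0.147). Cdx2 was lower without passing, at -0.70 (adjusted p = 0.0726). Fibroblast markers, 7 genes, summed in MC38 to 1738 to 3029 CPM with SIS ECM and 2366 to 3464 CPM in cells alone, with Thy1 at 0 in every library. Of these, 5 were tested in MC38. Col1a1, at 0.845 ± 0.272 CPM with SIS ECM and 7.98 ± 0.845 CPM in cells alone, and Fap fell, as did asporin and biglycan. The more abundant Col3a1 (-0.63, adjusted p = 0.0652), Pdgfrb (-0.25, adjusted p = 0.230) and Pdgfra (0.02, adjusted p = 0.923) did not pass. In CT26 the sums were 434 to 676 CPM with SIS ECM and 500.2 to 762 CPM in cells alone, and in HT29 0.669 to 1.31 and 0.704 to 1.58 CPM. Smooth muscle and endothelial markers summed to at most 0.711 and 5.52 CPM in any mouse library. Leukocyte markers in CT26 summed to 1.56 to 10.1 CPM with SIS ECM and 1.23 to 2.85 CPM in cells alone, almost all of it Cd68, with Cd3e at 0 throughout. Their part in the results was not tested.

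The authors' deposited table gave the same direction for each member called here, with log2 fold changes of -2.62 for Aspn, -1.03 for Bgn and -0.40 for Sdc4 in MC38, -1.01 for Aspn and 0.47 for Dcn in CT26, and 0.28 for GPC1 and 0.12 for SDC4 in HT29. Sdc1 in MC38 was lower in the authors' deposited table at -0.32 (their adjusted p = 0.0282), where the test here gave 0.0940.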

How the data were processed

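Per the labels, polyA RNA of day 7 spheroids went into stranded libraries read on a NovaSeq. Tools named in the submitters' processing notes are RSEM 1.3.1, STAR 2.7.0f, cutadapt 1.18 and limma, with builds hg38 and mm10. No source used here states which strand setting the counting had. The deposited values are the authors' expected counts per gene, not normalized, in 1 table per species. These estimated counts were rounded before testing, and all member values were already whole. The authors also deposited a log2 fold change and an adjusted p-value per gene and line, used here only where named, and 34 per-sample columns of those tables were not used.

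Each line was fitted alone with edgeR 4.0.16 (R 4.3.3): filterByExpr with a minimum count of 10, TMM factors and the quasi-likelihood F test, with adjusted p below 0.05 as the call. MC38 and CT26 were compared in a fit over 22 mouse libraries. The procedure was tested on simulated counts. Depth sets the precision: 3 counts were taken as the floor, covering counting error only. Mouse positions and exon lengths are from GENCODE for mm10. Human positions and protein sequences were not used here. Replicate numbers come from the labels. Deviations from group means correlated between libraries of the same number in MC38 (0.188 to 0.321 over 4 pairs) and CT26 (0.222 to 0.484 over 6). In HT29 they did not (-0.0956 to 0.0646). In both mouse lines the closest match was often another number of the same number range, so these values do not show pairing by number. A replicate block was run as an alternative. Other alternatives were DESeq2 1.42.0, its size factors in edgeR, no filter, a term for the number range, each range alone, and each library left out. Tests of the SIS ECM effect between ranges were added after the values were seen.

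The members and gene lists were chosen with earlier results of these data known. Named genes were all members, up to 4 called genes per list and line by smallest adjusted p, and the 3 genes of highest Pearson correlation with each called member, at a mean log2 CPM of at least 2. Called marker genes, GLCE and Adamts4 were added after their values were seen. BPNT2 matched no symbol.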

Additional observations from a re-analysis of the deposited data

Results flagged for a closer look

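Biglycan in MC38 cells alone replicate 1 stood apart from its group, at 98.2 CPM where the other four libraries had 76.3 to 82.4 CPM. Without that library the group still lay above every SIS ECM library. Glypican-1 in HT29 with SIS ECM replicate 4 had 44.1 CPM where the other five had 49.2 to 51.9 CPM. Of 34 groups of member values checked for a lone high or low library, these 2 were found, and chance alone gives about 1 in 20.

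The SIS ECM effect differed between the mouse lines for 5 members by the interaction test. MC38 minus CT26 was -1.62 on the log2 scale for asporin, -1.53 for biglycan, -0.74 for decorin, -0.62 for syndecan-4 and -0.55 for syndecan-1.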

How the results depend on the processing

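Of 1983 alternative values for single named genes, 1731 kept their direction and their side of the threshold, 231 lost their call, 19 gained one and 2 changed sign. The sign changed for Gpc1 in CT26 libraries 4 to 6 alone (-0.03) and for Dcn in MC38 libraries 1 to 3 alone (0.14). Members called in CT26 numbered 2, and 5 with a term for the number range. In CT26, libraries 1 to 3 alone also gave 2, syndecan-4 and asporin, and libraries 4 to 6 alone 2 others, decorin and syndecan-1. Over all genes CT26 had 1135 of 12269 called, and 3545 of 12269 with the term. The CT26 ranges had 2484 of 12405 genes called in libraries 1 to 3 and 2333 of 12300 in libraries 4 to 6. In MC38 there were 3, and 5 with the term, 6 in libraries 1 to 3 alone and 5 in libraries 4 to 6 alone. Calls over all genes rose there too, from 1206 of 13146 to 3246 of 13146 with the term. The MC38 ranges had 5287 of 13310 genes called in libraries 1 to 3 and 2318 of 13532 in libraries 4 to 6. In HT29 there were 2, and 1 without the filter on low counts. Its ranges gave 1 in libraries 1 to 3 alone and 0 in libraries 4 to 6 alone. HT29 had 2058 of 15207 genes called over all libraries and 1843 of 28615 without the filter. Within its ranges 719 of 15335 and 417 of 15260 were called. Leaving out each library gave 1 to 2 members in CT26, 3 to 4 in MC38, 2 in HT29, 5 for the difference between mouse lines and 7 for MC38 against CT26 cells alone. SDC4 in HT29 was 0.12 (adjusted p = 0.229) and 0.15 (adjusted p = 0.277) within the ranges, each with 6 libraries, and GPC1 0.26 in libraries 4 to 6 (adjusted p = 0.086).

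With the replicate block, members called stayed at 2 in CT26, 3 in MC38, 2 in HT29 and 5 for the difference between lines. For the genes named in MC38 and CT26 the block changed no call beyond those given and Gstcd in CT26. Gstcd passed with it (adjusted p = 0.0335). In HT29, libraries of the same number did not deviate together. There ADAM17, CHST14, MMP14 and TGFA lost their calls with the block (adjusted p = 0.0831, 0.0672, 0.0597 and 0.0824). The block could not be fitted for MC38 against CT26 cells alone.

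Counts over all genes moved by over 1.5 times. CT26 had 1135 calls, against 2281 with the block, 3545 with the range term, 2484 in libraries 1 to 3 and 2333 in libraries 4 to 6. MC38 had 1206, against 3246, 5287 and 2318 with the term and in each range, and 626 to 1948 leaving out each library. HT29 had 2058, against 719 and 417 in each range. The difference between lines had 1165, against 3740 with the term. Calls over the 7 lists were 14 in CT26 (24 with the term, 22 in libraries 1 to 3), 13 in MC38 (29 with the term, 42 and 20 in each range, 7 to 16 leaving out each library) and 16 in HT29 (9 and 5 in each range, 10 to 18 leaving out each library). The cause was not tested. Lumican in mouse and the secreted members in HT29 had under 14 counts per library, too few to be tested.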
